A study of Homo sapiens with 4 samples.

Results

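The tetraspanins are a family of small membrane proteins, and 28 of the 18377 genes measured in this series were taken as its members here. Members were taken by symbol, as any TSPAN followed by a number or as CD9, CD37, CD53, CD63, CD81, CD82 or CD151, where a probe of the array was annotated to that gene alone. RefSeq holds 29 protein-coding genes of these names, and the one without such a probe, TSPAN19, was not analysed here. UPK1A, UPK1B, PRPH2 and ROM1 are tetraspanins with other names, are not counted among the members and are described apart. The values came from the human hepatocellular carcinoma line Huh7, sorted by flow cytometry into CD133+ and CD133- cells in one sort and ALDH+ and ALDH- cells in the other, where ALDH stands for aldehyde dehydrogenase. The series frames the positive fractions as cancer stem cells and the negative fractions as the remaining tumour cells. All 4 fractions come from this single line, no other treatment is labelled, and each was measured on 1 Affymetrix array, so no difference below has a replicate check or a test.

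Tetraspanins cross the membrane repeatedly and carry a large extracellular loop with conserved cysteines. They bind each other and a set of partner proteins, such as integrins, immunoglobulin-like proteins and the sheddase ADAM10, and so group them into membrane domains. In liver cells CD81 is known as an entry receptor of hepatitis C virus, and several members are widely used as markers of secreted vesicles.

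Values are on the log2 scale after RMA, a summary of all probes of a gene that brings the arrays to one scale. Each difference is positive minus negative fraction within the same sort. A gene counted as above the expression floor in a sort where its brighter array reached 4.98, the median of all values. Values of different genes come from different probes and do not rank the genes by amount. PROM1, the gene of the CD133 protein, was at 9.0 in CD133-positive cells, against 5.32 in CD133-negative cells. ALDH1A1 was at 11.1 in ALDH-positive cells and likewise at 11.1 in ALDH-negative cells, a difference of 0.04, so this transcript does not check the labels of that sort. In the ALDH sort PROM1 was at 7.11 in ALDH-positive cells, against 8.39 in ALDH-negative cells (2.42-fold lower), so its high and low arrays were those of TSPAN8. All 7 measured genes of 8 hepatocyte and liver cancer markers were above the floor in both sorts, ALB between 10.9 and 11.7 and AFP between 11.6 and 11.9 over the 4 arrays. Of 6 fibroblast and stellate cell markers 3 were above the floor, COL1A1 (5.96 to 6.46), COL1A2 (5.81 to 6.27) and PDGFRB (5.45 to 5.80), and DCN, LUM and ACTA2 were below it on all 4 arrays. Of 7 measured leukocyte markers CD14, CD68 and LYZ were above it, and PTPRC lay between 2.45 and 2.64.

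TSPAN8 was the member that differed most in each sort, in opposite directions. Its protein, tetraspanin-8, is known from the epithelium of the digestive tract and from carcinomas arising there. TSPAN8 was at 8.46 in CD133-positive cells, against 7.17 in CD133-negative cells. It was at 7.14 in ALDH-positive cells, against 8.26 in ALDH-negative cells. The CD133-positive and ALDH-negative arrays were thus high and close together, and the other arrays low and close together. TSPAN8 was 2.45-fold higher in CD133-positive cells (difference 1.29) and 2.17-fold lower in ALDH-positive cells (difference -1.12). From the largest difference down, it stood at place 44 of 11591 genes above the floor in the CD133 sort. From the other end it stood at place 105 of 11879 genes in the ALDH sort. It was the only member at 2-fold in either sort, 1 of 23 members above the floor in the CD133 sort and 1 of 24 in the ALDH sort. The share of all genes above the floor that reached 2-fold upwards in CD133-positive cells was 0.716%, and 1.3% reached 2-fold downwards in ALDH-positive cells. No member was 2-fold lower in CD133-positive cells, where the share of all genes was 0.164%, and none was 2-fold higher in ALDH-positive cells, where it was 0.278%. Opposite differences of 2-fold were seen in 1 of 23 members above the floor in both sorts, and in 0.425% of all such genes. At 1.5-fold TSPAN8 was again the only member above the floor in either sort. The shares of all genes at 1.5-fold were 2.74% upwards and 1.89% downwards in CD133-positive cells, 4.15% upwards and 6.6% downwards in ALDH-positive cells, and 1.39% in opposite directions. From RNA of sorted populations, a smaller share of TSPAN8-expressing cells and less TSPAN8 RNA per cell cannot be told apart.

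Genes known from the intestinal epithelium differed in the same directions as TSPAN8, and their part in its difference was not tested. All 8 of 8 such genes (CDH17, MUC13, SI, LCT, SLC26A3, DPP4, VIL1 and CDX2) were higher in CD133-positive cells, at a mean log2 level of 8.20, against 6.40 in CD133-negative cells. All 8 were lower in ALDH-positive cells, at a mean level of 7.24, against 8.74 in ALDH-negative cells. The median difference of the list was 2.05 for CD133 and -1.61 for ALDH. On the brighter array of each sort all 8 were above the floor. LCT (4.44) and SLC26A3 (4.15) were below it in CD133-negative cells. Their CD133 differences, which enter the list median, thus rest on values below the floor. Of all genes above the floor, 42.9% were higher in CD133-positive cells and 51.5% lower in ALDH-positive cells. The list was chosen with earlier results of these data known. The difference of TSPAN8 was smaller than the list median in each sort and larger than those of the microvillus protein VIL1 (0.30 and -0.53) and the intestinal transcription factor CDX2 (0.90 and -0.68).

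**Figure D1:**
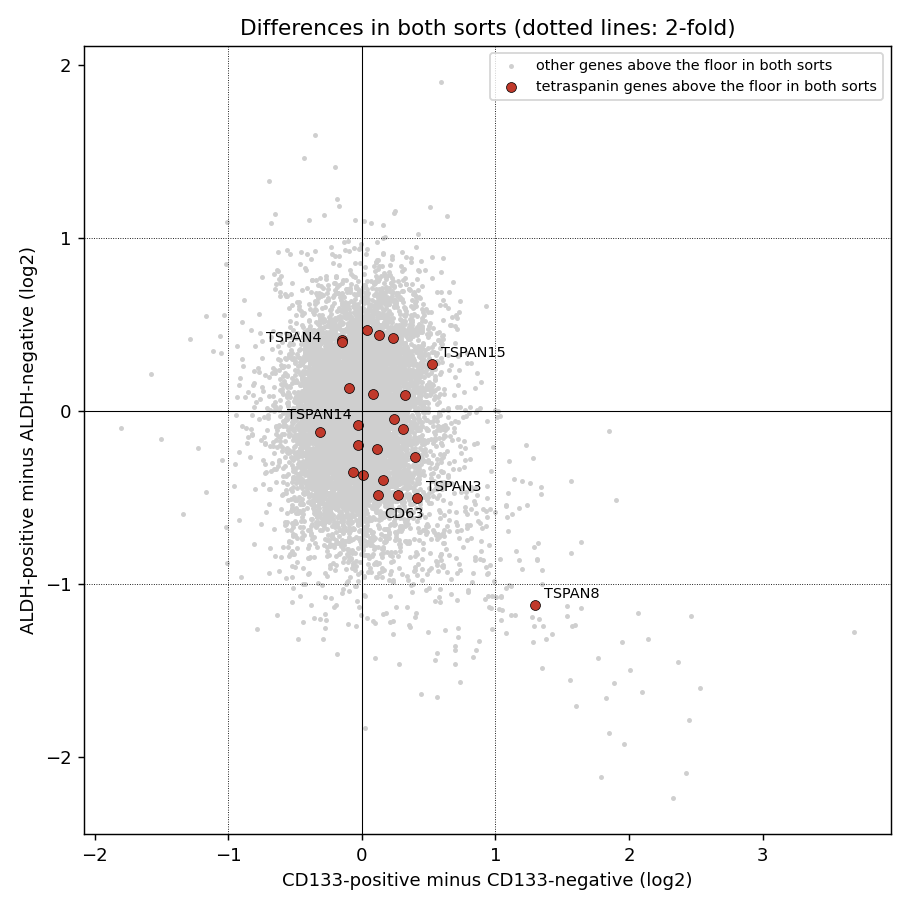
Each point is a gene above the floor in both sorts, with its CD133-positive minus CD133-negative difference on the horizontal axis and its ALDH-positive minus ALDH-negative difference on the vertical axis (both log2). Red points are the 23 tetraspanin genes and grey points the other genes; dotted lines mark 2-fold. TSPAN8, at 1.29 and -1.12, lies beyond 2-fold on both axes and the other 22 red points lie within 2-fold on both.

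Promoter sequence was available for 20 of the 28 members, from RefSeq on build GRCh38.p14, and 2 are shown because CD63 was the one other member with the same order of the 4 arrays as TSPAN8. A further one belongs to TSPAN15, the member with the next largest difference in the CD133 sort. Each run gives the 250 bases before the annotated start of the gene, 5′ to 3′ on the strand of the gene, and capitals mark the GC box GGGCGG or its reverse complement. The runs lie at chr12:71158000-71158249 (minus strand) for TSPAN8, chr12:55729010-55729259 (minus strand) for CD63 and chr10:69451215-69451464 (plus strand) for TSPAN15.
TSPAN8: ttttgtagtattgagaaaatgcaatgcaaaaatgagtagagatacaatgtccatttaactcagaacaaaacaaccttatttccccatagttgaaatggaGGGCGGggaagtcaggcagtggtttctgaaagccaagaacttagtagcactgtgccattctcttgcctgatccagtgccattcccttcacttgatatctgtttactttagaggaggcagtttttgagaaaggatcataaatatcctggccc
CD63: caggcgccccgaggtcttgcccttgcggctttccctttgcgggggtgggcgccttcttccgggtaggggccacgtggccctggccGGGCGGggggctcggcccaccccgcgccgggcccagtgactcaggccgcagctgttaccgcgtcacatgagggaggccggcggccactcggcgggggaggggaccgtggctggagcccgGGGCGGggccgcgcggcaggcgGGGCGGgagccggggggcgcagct
TSPAN15: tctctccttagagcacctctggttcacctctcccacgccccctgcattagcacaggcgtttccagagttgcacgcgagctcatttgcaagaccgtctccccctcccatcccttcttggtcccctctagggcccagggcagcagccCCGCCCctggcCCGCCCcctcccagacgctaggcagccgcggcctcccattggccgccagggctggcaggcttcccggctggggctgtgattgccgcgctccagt
The TSPAN8 promoter is poor in G and C (40.8%), the second lowest of the 20 members after TSPAN6 at 36.4%, and holds 1 CpG. CD63 has 79.2% G and C with 30 CpGs, and TSPAN15 67.6% with 14. The median over the 20 members was 63.6%, and 58% over all 27305 promoters of the same length. The GC box was found on either strand in 12 of the 20 members and in 42.3% of all promoters. It begins 151 bases before the start in TSPAN8, and 165, 46 and 24 bases before it in CD63. The E-box CACCTG was found in 6 of the 20 (CD53, TSPAN10, TSPAN13, TSPAN16, TSPAN2 and TSPAN33) and in 17.5% of all promoters. The TATA box TATAAA, the core GTTAAT of the site of hepatocyte nuclear factor HNF1 and the site CAAAGTCCA of HNF4 were found in 0 of the 20, and in 11.1%, 6.22% and 0.293% of all promoters. The 5 motifs were searched on both strands and do not overlap where they are marked. A match is a stretch of letters and not a bound site.

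The vesicle tetraspanins CD9, CD63 and CD81 were all slightly higher in CD133-positive cells and slightly lower in ALDH-positive cells, CD81 there within the reach of normalization, and none reached 1.5-fold. These directions were found in 10 of the 23 members above the floor in both sorts, CD9, CD63 and CD81 included. They were found in 21.9% of all such genes. CD63, which recycles between the plasma membrane, late endosomes and lysosomes, was at 9.05 in CD133-positive cells, against 8.78 in CD133-negative cells. It was at 8.55 in ALDH-positive cells, against 9.03 in ALDH-negative cells. Its ALDH-positive array was the lowest of the 4, and its differences were 0.27 and -0.48. CD81 was at 8.51 in CD133-positive cells, against 8.27 in CD133-negative cells, and at 8.38 in ALDH-positive cells, against 8.42 in ALDH-negative cells. The second of these differences, -0.05, turned to 0.02 after a second quantile normalization, so it has no settled direction. CD9, known for its part in membrane fusion at fertilisation, was at 7.61 in CD133-positive cells, against 7.50 in CD133-negative cells. It was at 7.82 in ALDH-positive cells, against 8.04 in ALDH-negative cells, so that both ALDH-sort arrays stood above both CD133-sort arrays.

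TSPAN3 had the same directions, with differences of 0.41 and -0.50. It was at 10.4 in CD133-positive cells, against 9.95 in CD133-negative cells, and at 9.89 in ALDH-positive cells, against 10.4 in ALDH-negative cells. As for TSPAN8, the CD133-positive and ALDH-negative arrays were the higher ones, but the fold was only 1.33 in the first sort and 1.42 in the second. TSPAN13 was at 8.51 in CD133-positive cells, against 8.11 in CD133-negative cells, and at 8.40 in ALDH-positive cells, against 8.66 in ALDH-negative cells. TSPAN12, which assists the Norrin receptor FZD4 in retinal vessels, differed by 0.16 in the CD133 sort but by -0.40 in the ALDH sort. TSPAN9, known from platelets, differed by 0.12 and -0.48.

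The TspanC8 subgroup, whose members bind ADAM10 and steer its traffic and cleavage of substrates, showed no common direction in the CD133 sort. Of its 6 members, TSPAN5, TSPAN10 and TSPAN15 were higher in CD133-positive cells and TSPAN14, TSPAN17 and TSPAN33 lower, with a median of 0.00. After a second quantile normalization TSPAN10 (-0.01) and TSPAN17 (0.03) changed sign in that sort. In the ALDH sort 4 were higher and 2 lower, at a median of 0.34, beside -0.01 over all genes above the floor. With the floor raised to the 75th percentile of all values, which leaves out the dimmer members, that median was -0.080. No member reached 1.5-fold in either sort. TSPAN15 was at 7.17 in CD133-positive cells, against 6.65 in CD133-negative cells, and at 7.18 in ALDH-positive cells, against 6.90 in ALDH-negative cells. Both positive fractions were thus above both negative fractions for this gene, by 1.44-fold for CD133 and 1.21-fold for ALDH. TSPAN14 went the other way in both, at 7.58 in CD133-positive cells, against 7.89 in CD133-negative cells, and at 7.58 in ALDH-positive cells, against 7.70 in ALDH-negative cells. Its CD133 difference of -0.31 was the lowest of all members in that sort. TSPAN17 spanned 0.08 over the 4 arrays, the narrowest range of all members taken by symbol.

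The remaining TspanC8 members differed mainly in the ALDH sort. TSPAN5 was at 5.54 in ALDH-positive cells, against 5.11 in ALDH-negative cells (0.42), and TSPAN33, known from activated B cells, at 6.39 in ALDH-positive cells, against 5.98 in ALDH-negative cells (0.41). TSPAN10 was at 5.30 in ALDH-positive cells and, below the floor, at 4.83 in ALDH-negative cells. Their differences in the CD133 sort were 0.23 for TSPAN5, -0.15 for TSPAN33 and 0.04 for TSPAN10. ADAM10 itself differed by -0.07 in the CD133 sort and by -0.16 in the ALDH sort.

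Among members of the integrin and cell-surface web, CD151, which binds laminin-binding integrins directly, was at 8.13 in CD133-positive cells, against 7.80 in CD133-negative cells. It was at 7.97 in ALDH-positive cells, against 7.87 in ALDH-negative cells. Both positive arrays were above both negative arrays, by 0.32 and 0.09. CD82, known as a suppressor of metastasis, differed by 0.08 and 0.10 and spanned 0.29 over the 4 arrays. TSPAN4, a tetraspanin of the migrasomes that moving cells leave behind, was at 6.69 in CD133-positive cells, against 6.84 in CD133-negative cells. It was at 6.72 in ALDH-positive cells, against 6.32 in ALDH-negative cells. The directions of TSPAN4 were thus the reverse of those of TSPAN8, as were those of TSPAN33 and of TSPAN18 (-0.10 and 0.13).

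The tetraspanins of leukocytes lay mostly below the floor. CD37 was at 4.75 in ALDH-positive cells, against 4.06 in ALDH-negative cells, and CD53 at 3.58 in ALDH-positive cells, against 3.10 in ALDH-negative cells, so their differences of 0.69 and 0.48 lie in the dim range. When dim values were lifted to the floor, both differences were 0. TSPAN32, a gene of blood cells, was the one above the floor, at 5.93 in ALDH-positive cells, against 5.49 in ALDH-negative cells. In the CD133 sort these genes differed by 0.18 (CD37), 0.26 (CD53) and 0.13 (TSPAN32). Of 8 leukocyte markers 7 were measured and 3 were above the floor in each sort. Their mean log2 level over the 7 was 4.90 in CD133-positive and 4.93 in CD133-negative cells, and it was 5.03 in ALDH-positive cells, against 4.80 in ALDH-negative cells. Their part in the differences of these tetraspanins was not tested. Lysozyme LYZ was at 7.77 in ALDH-positive cells, against 6.44 in ALDH-negative cells. CD14 was at 6.23 in ALDH-positive cells, against 5.81 in ALDH-negative cells, and CD68 at 7.10 in ALDH-positive cells, against 7.87 in ALDH-negative cells. LYZ and CD14 were thus higher in ALDH-positive cells, as the leukocyte tetraspanins were, and CD68 was lower. PTPRC, CD3E, MS4A1 and ITGAM were below the floor on all 4 arrays.

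Of the remaining members, TSPAN1 and TSPAN16 were below the floor on all 4 arrays, TSPAN1 between 3.66 and 4.33 and TSPAN16 between 2.69 and 2.98. TSPAN2, known from oligodendrocytes, was above the floor in ALDH-negative cells alone, at 4.63 in ALDH-positive cells and 5.14 in ALDH-negative cells. Against the floor its difference was -0.16. TSPAN7, known from neurons and mutated in an X-linked intellectual disability, was at 8.88 in ALDH-positive cells, against 9.25 in ALDH-negative cells (-0.37). It was alike in the CD133 sort, at 8.82 in CD133-positive and 8.81 in CD133-negative cells. TSPAN31, a gene amplified in sarcomas, was at 7.92 in CD133-positive cells, against 7.98 in CD133-negative cells, and at 7.86 in ALDH-positive cells, against 8.21 in ALDH-negative cells. Its differences were -0.06 and -0.35. TSPAN6 was at 8.35 in CD133-positive cells, against 8.38 in CD133-negative cells, and at 7.94 in ALDH-positive cells, against 8.14 in ALDH-negative cells, so that both CD133-sort arrays stood above both ALDH-sort arrays. TSPAN11 had 2 probes that disagreed: the brighter gave 0.30 (CD133) and -0.10 (ALDH), and the dimmer, below the floor, gave -0.24 and 0.51.

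**Figure D2:**
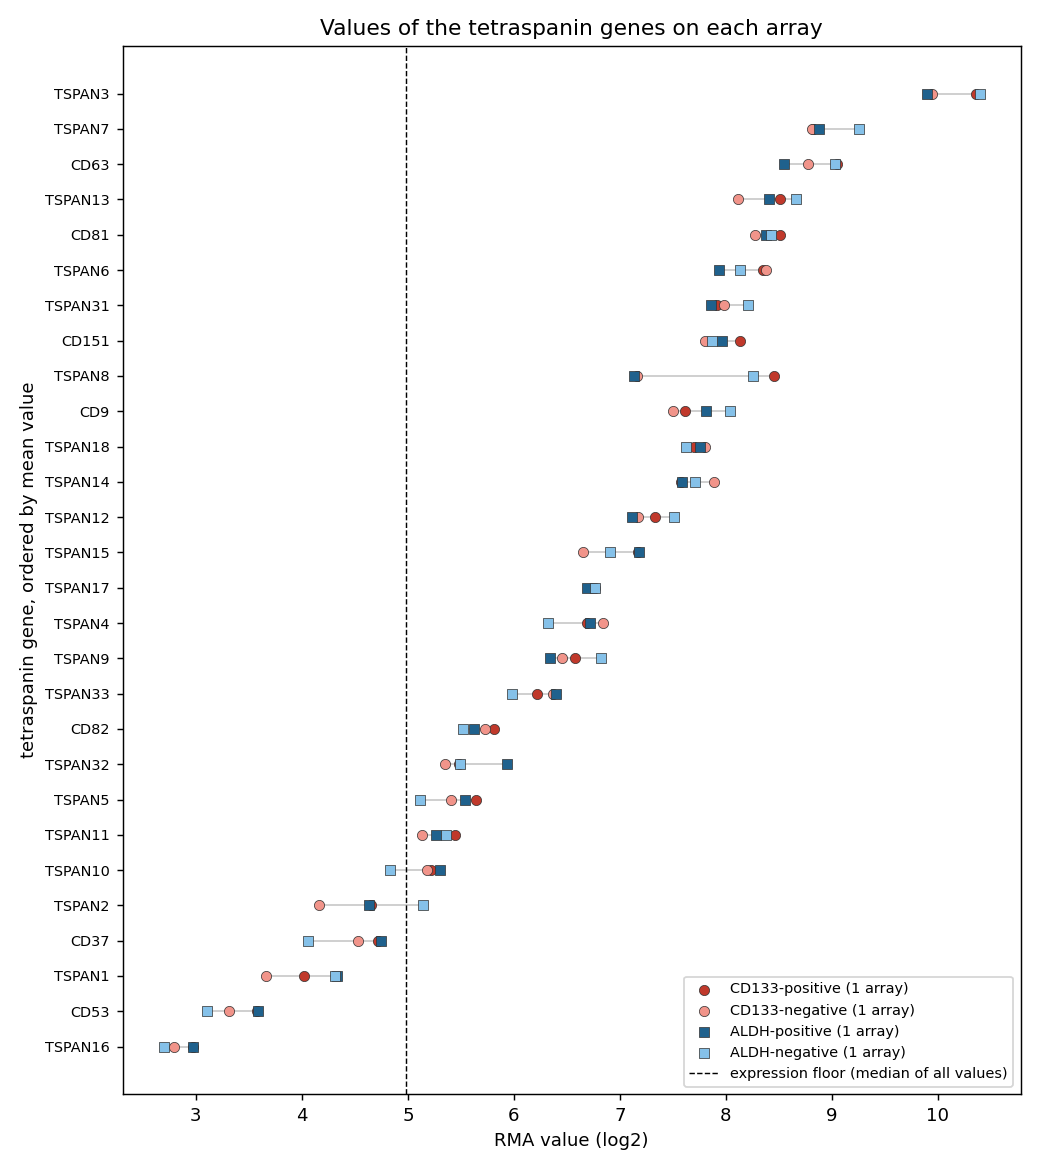
The horizontal axis is the RMA value (log2) and each row is a tetraspanin gene, with 1 point for each of the 4 arrays, and the dashed line is the floor of 4.98. TSPAN8 has the widest range over the 4 arrays, 1.32, with CD133-positive and ALDH-negative cells at 8.46 and 8.26 and the other arrays at 7.17 and 7.14.

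Over the 28 members taken by symbol, more were higher in CD133-positive cells than lower. In that sort 21 of 28 members were higher and 7 lower, with a median of 0.17, while 49% of all 18377 genes were higher and 50.9% lower, with a median of -0.01. Among the 23 members above the floor 16 were higher, with a median of 0.12, beside 42.9% higher, 57.1% lower and a median of -0.04 over all genes above the floor. CD37, CD53, TSPAN1, TSPAN16 and TSPAN2 were the 5 below it. In the ALDH sort 13 of 28 were higher and 15 lower, at a median of -0.06, while 53.8% of all genes were higher and 46.1% lower, with a median of 0.03. Among the 24 members above the floor 9 were higher and 15 lower, with a median of -0.11, beside 48.5% higher, 51.5% lower and a median of -0.01 over all genes above the floor. The median of the members was -0.22 with the floor at the 75th percentile and -0.06 with none. TSPAN2 counts here through its ALDH-negative array alone.

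Members whose array values were higher also tended to be lower in ALDH-positive cells. All 6 members with a mean value of 8 or more over the 4 arrays (TSPAN3, TSPAN7, CD63, TSPAN13, CD81 and TSPAN6) were lower in ALDH-positive cells, although CD81 turned to 0.02 after a second quantile normalization, while 47.1% of all genes at such values were higher. From 7 to 8 there were 2 of 7 members higher, from 6 to 7 there were 3 of 5, and from 5 to 6 there were 4 of 5. Over all genes the share that was higher in ALDH-positive cells was 43.3% from 7 to 8, 43.5% from 6 to 7, 54.5% from 5 to 6 and 64.7% from 4 to 5. The distance between the quartiles of all probes was 2.82 on the ALDH-positive array and 2.99 on the ALDH-negative array. After a second quantile normalization, 14 of 24 members above the floor were still lower there, at a median of -0.09, beside 47.2% of all genes above the floor and a median of 0.02. The part of the array distributions in the single differences was not tested beyond this.

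**Figure D3:**
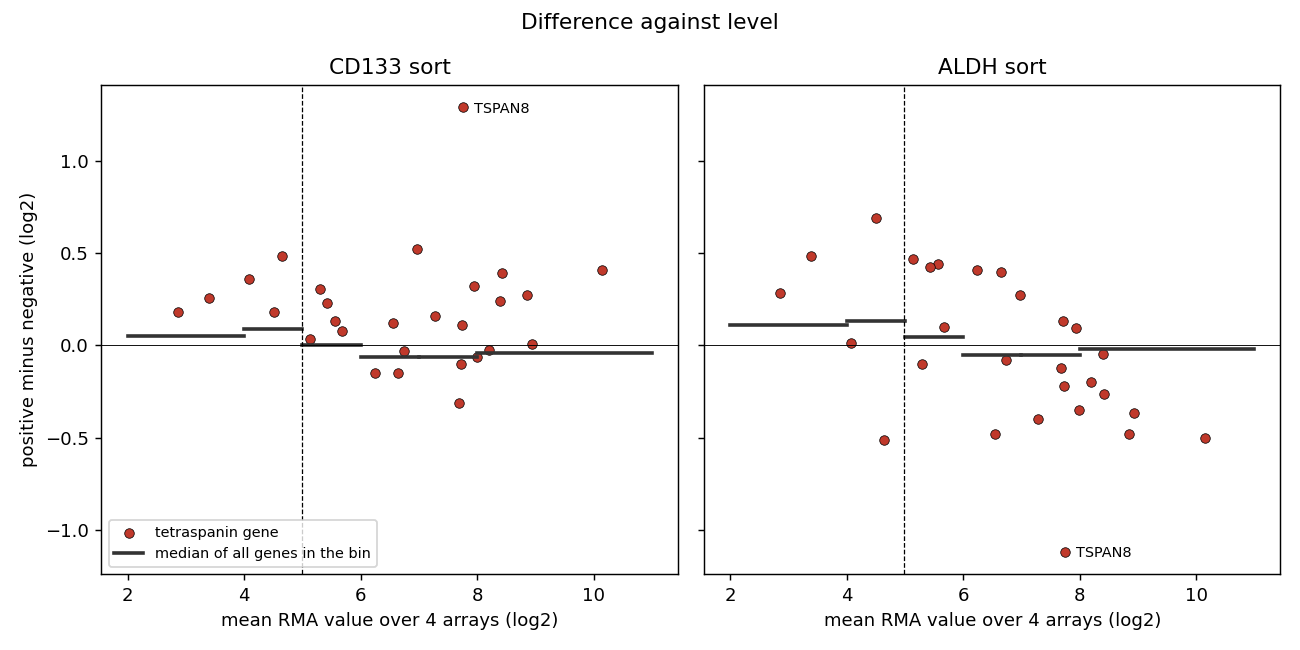
Each red point is a tetraspanin gene, with its mean RMA value over the 4 arrays (log2) on the horizontal axis and its positive minus negative difference (log2) on the vertical axis, for the CD133 sort at left and the ALDH sort at right. Black bars are the medians of all genes in bins of that mean value and the dashed line is the floor of 4.98. In the ALDH sort the 6 members at 8 or more all lie below 0, CD81 at -0.05 and above 0 (0.02) after a second quantile normalization.

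Both sorts together gave 4 combinations of direction over the 23 members above the floor in both. Those above 0 for CD133 but below 0 for ALDH were 10 of 23 (CD63, CD81, CD9, TSPAN11, TSPAN12, TSPAN13, TSPAN3, TSPAN7, TSPAN8 and TSPAN9), beside 21.9% of all such genes. Together with the reverse combination, opposite signs were found in 13 of 23 members and in 48.5% of all such genes. The reverse held for 3 (26.7% of all such genes), higher in both positive fractions were 6 (21.1%), and lower in both were 4 (TSPAN14, TSPAN17, TSPAN31 and TSPAN6, beside 30.4%). Under the second quantile normalization, CD81 turned in the ALDH sort, and TSPAN6, TSPAN10 and TSPAN17 in the CD133 sort, as did TSPAN11 in the ALDH sort with the mean over its probes. For 9 of the 24 members above the floor on at least 1 array, the CD133-positive and ALDH-negative arrays were both above the other arrays (13.2% of all such genes). For 3 they were both below (12.1%). The 9 include TSPAN2, which was above the floor on its ALDH-negative array alone and so entered through an array where it was high. They also include TSPAN11, whose dimmer probe, below the floor, went the other way in each sort (-0.24 and 0.51). The direction of each ALDH difference rests on labels that no transcript checked.

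Known partners of the tetraspanins were mostly lower in ALDH-positive cells. Of 23 partner genes 21 were measured, 20 of them above the floor in the ALDH sort and 18 in the CD133 sort. Of the 21, 20 were lower in the ALDH-positive fraction and 1 higher, at a median of -0.19. Of all genes 46.1% were lower there, and of those above the floor 51.5%. With the floor at the 75th percentile the median of the partners was -0.35. In the CD133 sort 14 partners were higher and 7 lower, with a median of 0.10. Of all genes 49% were higher there and 50.9% lower, and of those above the floor 42.9% were higher and 57.1% lower. At 1.5-fold and above the floor, 3 were higher in CD133-positive cells and 4 lower in ALDH-positive cells. Over all genes above the floor, those shares were 2.74% and 6.6%. EPCAM, the epithelial adhesion molecule, was at 9.40 in CD133-positive cells, against 8.30 in CD133-negative cells, and at 7.88 in ALDH-positive cells, against 8.89 in ALDH-negative cells. Its differences were 1.10 and -1.003, and its dimmer probe gave 0.77 and -0.68. CLDN7, a claudin that joins EPCAM and TSPAN8 in membrane complexes of carcinoma cells, was at 6.65 in CD133-positive cells, against 5.67 in CD133-negative cells. It was at 6.33 in ALDH-positive cells, against 7.31 in ALDH-negative cells. TSPAN8, EPCAM and CLDN7 thus had the same high and low arrays, at 0.99 and -0.98 for CLDN7.

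The integrin subunit ITGAV differed by 0.66 in the CD133 sort and by -0.53 in the ALDH sort. ITGA2, a subunit of a collagen receptor, differed by 0.29 and -0.79, and the growth factor receptor MET by 0.35 and -0.61. Of the laminin-binding subunits that pair with CD151, ITGA6 differed by -0.23 and -0.47, and ITGA3 by 0.07 and -0.32. The immunoglobulin-like partners of CD9 and CD81 were IGSF8, with -0.38 and -0.03, and PTGFRN, with 0.17 and -0.12. CLDN1 and SCARB1, which act with CD81 in hepatitis C virus entry, differed by 0.13 and 0.02 in the CD133 sort and by -0.27 and -0.20 in the ALDH sort.

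Of 14 genes of vesicles and late endosomes 13 were measured, with 5 higher and 8 lower in each sort and medians of -0.05 (CD133) and -0.13 (ALDH). Over all genes, 50.9% were lower in CD133-positive cells and 46.1% in ALDH-positive cells. Over all genes above the floor, these shares were 57.1% and 51.5%. The only gene of the list at 1.5-fold and above the floor was the secretory GTPase RAB27B. It was at 4.52 in ALDH-positive cells, against 5.38 in ALDH-negative cells (-0.86). Over all genes above the floor, 6.6% were 1.5-fold lower in ALDH-positive cells. RAB27B was above the floor on its ALDH-negative array alone, so its fold rests on a value below the floor. In the CD133 sort it lay below the floor and differed by 0.62. Genes of dividing cells also differed in the ALDH sort. All 6 of 6 were higher in ALDH-positive cells, at a mean log2 level of 7.68, against 6.87 in ALDH-negative cells. In CD133-positive cells 4 of 6 were lower, at a mean level of 7.67, against 7.73 in CD133-negative cells. Of all genes above the floor, 48.5% were higher in ALDH-positive cells and 57.1% lower in CD133-positive cells. The part of the genes of dividing cells in the ALDH differences of the tetraspanins and partners was not tested.

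**Figure D4:**
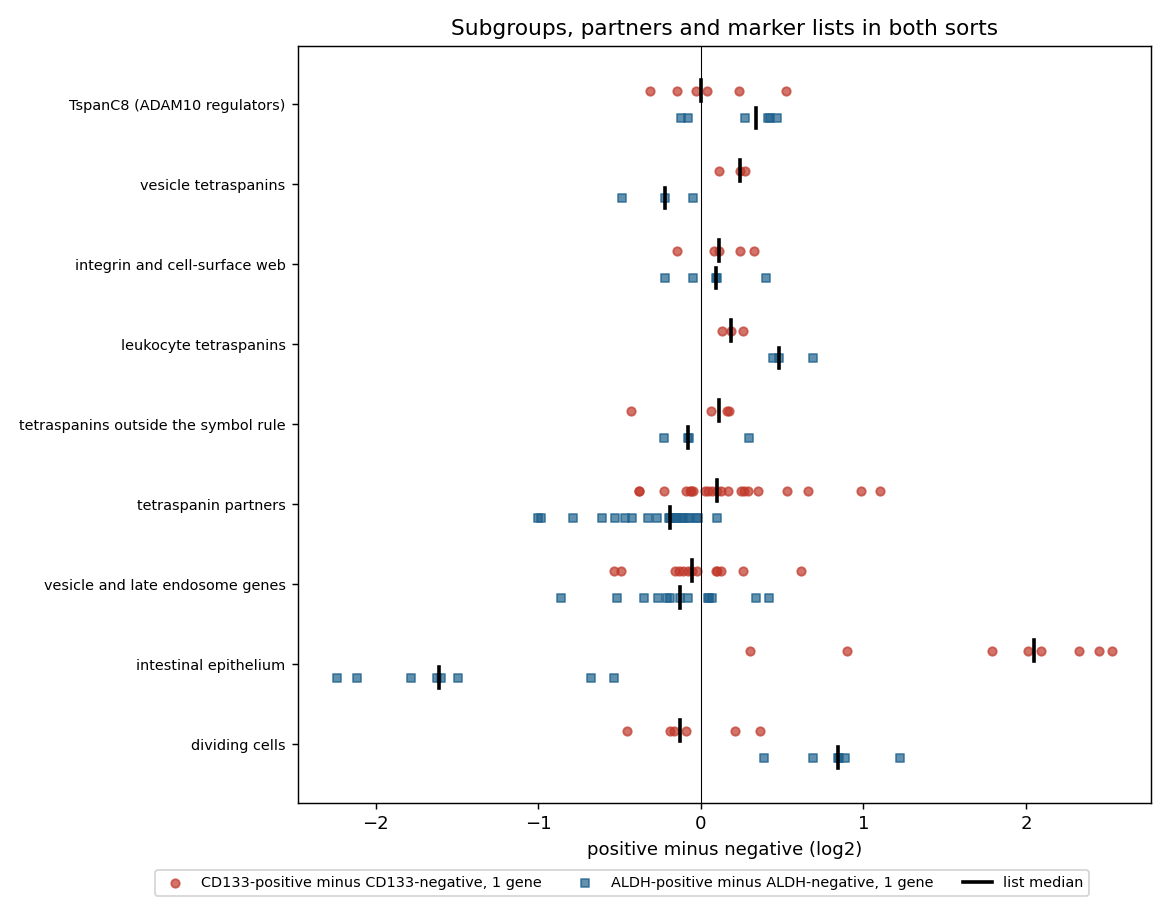
Each row is a gene list, with CD133-positive minus CD133-negative differences as red circles and ALDH-positive minus ALDH-negative differences as blue squares (log2), 1 point for each gene, and black bars at the list medians. The intestinal genes lie at medians of 2.05 and -1.61, and the tetraspanin partners at 0.10 and -0.19.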

How the data were processed

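Total RNA of 4 fractions of the line Huh7 was isolated with Trizol and carried a biotin label on the arrays, per the labels' protocols. The authors deposited log2 values that they had made with RMA, per the submitters' processing notes. Software and genome build are not given in the sources used here. The log2 scale was read from the values, 0.556 to 13.5. RMA equalises the arrays, so it hides any change common to most genes.

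Of 28869 probes, 19310 carried 1 gene symbol in the platform annotation, 1752 several and 7807 none listed. The probe with the highest mean represented a gene, and all 28 members matched RefSeq by gene identifier. Probe coordinates are not printed, since their build is not known here.

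Members and lists were chosen with earlier results of these data known. Members were given in full when at 1.5-fold and above the floor or among the 8 with the highest mean; other members, partners and values were added after their values were seen. With 1 array per group nothing was tested, and the number of arrays limits the precision. Differences were computed with Python 3.11.15, pandas 2.3.3 and numpy 2.4.6, and tested on simulated data. Alternatives were the fold, floor, probe rule, centring, a second quantile normalization, raised dim values and exchanged ALDH labels.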

Additional observations from a re-analysis of the deposited data

Results flagged for a closer look

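TSPAN8 differed in opposite directions between the sorts, by 1.29 in CD133-positive against CD133-negative cells and by -1.12 in ALDH-positive against ALDH-negative cells. EPCAM did so by 1.10 and -1.003, and CLDN7 by 0.99 and -0.98. These were the members and partners above the floor and at least 1.5-fold different in both sorts with opposite signs. The difference between the sorts was not tested, since each fraction has 1 array.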

How the results depend on the processing

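TSPAN8 kept its directions and stayed beyond 2-fold in both sorts under each alternative but the exchange of the ALDH labels, from 1.29 to 1.33 in the CD133 sort and from -1.15 to -1.08 in the ALDH sort. The counts at 2-fold were the same at 1.5-fold, without a floor, with the floor raised to 6.48, the 75th percentile, with probe means, after centring, after a second quantile normalization and with dim values raised to the floor, except where stated here. With the ALDH labels exchanged, added after the data were seen, 0 members were opposite at 2-fold and 1, TSPAN8, was 2-fold higher in both positive fractions. With the floor at the 75th percentile, ALDH medians moved to -0.22 for the members, to -0.080 for the TspanC8 genes, to -0.35 for the partners and to -0.23 for the tetraspanins outside the symbol rule; fewer genes enter there. After the second quantile normalization the CD133 median of that last list was -0.13, against 0.17 before. The 0.17 was the difference of UPK1B, the only 1 of the 4 genes above the floor in that sort. UPK1A, at 4.95 in CD133-negative cells, lay just below the floor and differed by -0.43. The cause of the shift was not tested. Of 56 single differences, that normalization turned the sign of 5, none of them larger than 0.1, and probe means turned that of TSPAN11 in the ALDH sort to 0.20. No replicate could be left out, since each group has 1 array. No paired analysis was possible, for the same reason.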

Other observations

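Tetraspanins whose names fall outside the symbol rule stayed within 1.5-fold in both sorts. UPK1B, a uroplakin of the bladder lining, was at 6.62 in CD133-positive cells, against 6.45 in CD133-negative cells, and at 6.54 in ALDH-positive cells, against 6.76 in ALDH-negative cells. UPK1A and the photoreceptor genes PRPH2 and ROM1 lay between 4.29 and 5.15 over the 4 arrays, and none of these 4 genes reached 1.5-fold in either sort. UPK1A, below the floor in the CD133 sort, differed by -0.43 there and by -0.08 in the ALDH sort.

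Several members are neighbours on chromosome 11 in the RefSeq order of protein-coding genes, and their differences are given side by side. No such gene lies between TSPAN32 and CD81, which differed in the ALDH sort by 0.44 and -0.05, or between CD82 and TSPAN18, which differed in the CD133 sort by 0.08 and -0.10. CD151 and TSPAN4, with 1 gene between them, differed in the CD133 sort by 0.32 and -0.15 and in the ALDH sort by 0.09 and 0.40.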
